A study of Mus musculus with 6 samples.

Results

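The net change in messenger RNA over 4 days of DMSO treatment was described in MEL cells, a mouse erythroleukemia line that is blocked at an early erythroid stage and resumes maturation when DMSO is added. The comparison sets the 2 libraries of cells collected after 4 days of 2% DMSO against the 2 libraries of untreated cells (day 0), out of 6 mRNA-seq libraries that also include 2 from day 2. Each day holds 2 biological replicates of the same line, with no further genotype or agent in the labels, so the spread between replicates is that of 1 cell line in culture. The series holds no untreated cells from day 2 or day 4. Effects of DMSO and of time in culture therefore cannot be told apart. Each gene was represented by its most counted RefSeq transcript, which gave 24164 genes, of which 12489 had enough reads to be tested. Where 2 values are given for a day, replicate 1 comes first.

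Erythroid maturation converts a dividing progenitor into a cell whose cytoplasm is mostly hemoglobin. The cell induces globin chains, the enzymes that build heme, the receptors and carriers that bring in iron, and the spectrin-based skeleton with its band 3 anchor, while proliferation, ribosome production and genes of other blood lineages decline. The transcription factors GATA1, KLF1 and TAL1 are central to this program, and GATA1 and KLF1 bind GATA and CACCC motifs, respectively, near many erythroid genes.

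The adult β-globin Hbb-bs and the rate-limiting heme enzyme Alas2 were among the 12 genes with the largest rise in TPM, and among the genes lost, Fcer1a, the IgE-binding chain of the mast cell receptor, and Cpa3, a mast cell carboxypeptidase, ended at or near no reads. The stretches of DNA directly before the start of these 4 genes are shown because GATA or CACCC letters stand in each, in promoters of gained and lost genes alike. They are RefSeq sequence on GRCm38.p6, written 5′ to 3′ along the gene's own strand and ending at the base before the RefSeq span of the gene. Capitals mark 1 match per promoter to CCACACCC, or to AGATAA or TGATAA on either strand, the reverse complement of AGATAA being TTATCT. They lie at chr7:103827929-103828078 on the minus strand for Hbb-bs, at chrX:150547267-150547416 on the plus strand for Alas2, at chr1:173227233-173227379 on the minus strand for Fcer1a and at chr3:20242210-20242331 on the minus strand for Cpa3.
Hbb-bs: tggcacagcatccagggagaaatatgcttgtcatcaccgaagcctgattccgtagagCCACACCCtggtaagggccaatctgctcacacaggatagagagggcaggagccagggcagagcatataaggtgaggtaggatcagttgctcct
Alas2: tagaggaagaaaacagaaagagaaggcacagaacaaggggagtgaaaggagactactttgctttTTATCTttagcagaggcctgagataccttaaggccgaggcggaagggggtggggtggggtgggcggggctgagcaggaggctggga
Fcer1a: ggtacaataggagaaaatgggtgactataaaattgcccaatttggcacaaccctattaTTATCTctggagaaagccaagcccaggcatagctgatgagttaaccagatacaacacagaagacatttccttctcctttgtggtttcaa
Cpa3: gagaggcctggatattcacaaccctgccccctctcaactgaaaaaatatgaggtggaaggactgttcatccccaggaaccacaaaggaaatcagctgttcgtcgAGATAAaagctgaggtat

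A match is a description of the letters and not evidence of binding. In the 250 bases before the start, AGATAA or TGATAA occurred on either strand in 17% of 27025 RefSeq promoters and in 9.65% of the 9680 promoters that could be matched to tested genes. The share was 15.6% (74 of 473 promoters) for genes called at least 4-fold higher on day 4 and 16.4% (96 of 585) for genes called at least 4-fold lower. Among the promoters of the red cell membrane genes listed for this study 7 of 17 held the motif, and among those of the heme synthesis genes 2 of 7. Among the genes that fell from 30 or more reads to 3 or fewer (switched off) 17 of 55 did. For the reverse change (switched on) the number was 3 of 14. CCACACCC, whose letters cannot overlap those of the GATA motifs, was found on either strand in 3.19% of all promoters. Its share was 3.58% for tested genes, 4.23% (20 of 473) for those at least 4-fold higher and 4.1% (24 of 585) for those at least 4-fold lower. It stood in 0 of 17 red cell membrane, 0 of 7 heme synthesis, 0 of 14 switched on and 2 of 55 switched off promoters. These sets are too small to show a difference from such shares.

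Counts summed over all transcripts ranged from 35294930 to 53899476 per library over the series, with overlap between the days. A read may enter this sum more than once where transcripts or gene copies share it. Reads outside annotated features were set against their own number plus this sum, with other uncounted reads left out. They made up 50.5 and 54.1% on day 0, 53.8 and 52.7% on day 2 and 58.1 and 58.4% on day 4. This share was thus highest in both day 4 libraries, and its part in the results below was not tested. The TMM factors, which adjust for differences in composition between libraries, ranged from 0.921 to 1.07. Because 2 against 2 libraries cannot give an exact permutation p below 0.333, shares of reads are given as values, and only changes of single genes were tested, with edgeR's quasi-likelihood test over all 18351 transcripts that passed the filter on low counts (adjusted p below 0.05, called a change below).

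Most of the measured transcriptome moved. Of the 12489 genes tested 4444 (35.6%) were called higher and 4529 (36.3%) lower on day 4, and at a change of 2-fold or more these were 2098 (16.8%) and 2350 (18.8%). The 35.6 and 36.3% are the background against which all counts of called class members below are to be read. The median log2 fold change over all tested genes was -0.02, and the median standard error of a gene was 0.138. At larger sizes falls outnumbered rises: 662 genes rose and 762 fell at least 4-fold, and 67 rose and 103 fell at least 32-fold. For 7048 of the 8973 called genes (78.5%) the day 2 mean lay between the means of the other days. When libraries were scaled to total counts instead, the median log2 fold change moved to 0.10 and the share of calls that were higher from 49.5 to 55.2%. The plot of change against level shows genes called in both directions from low to high expression.

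**Figure D1:**
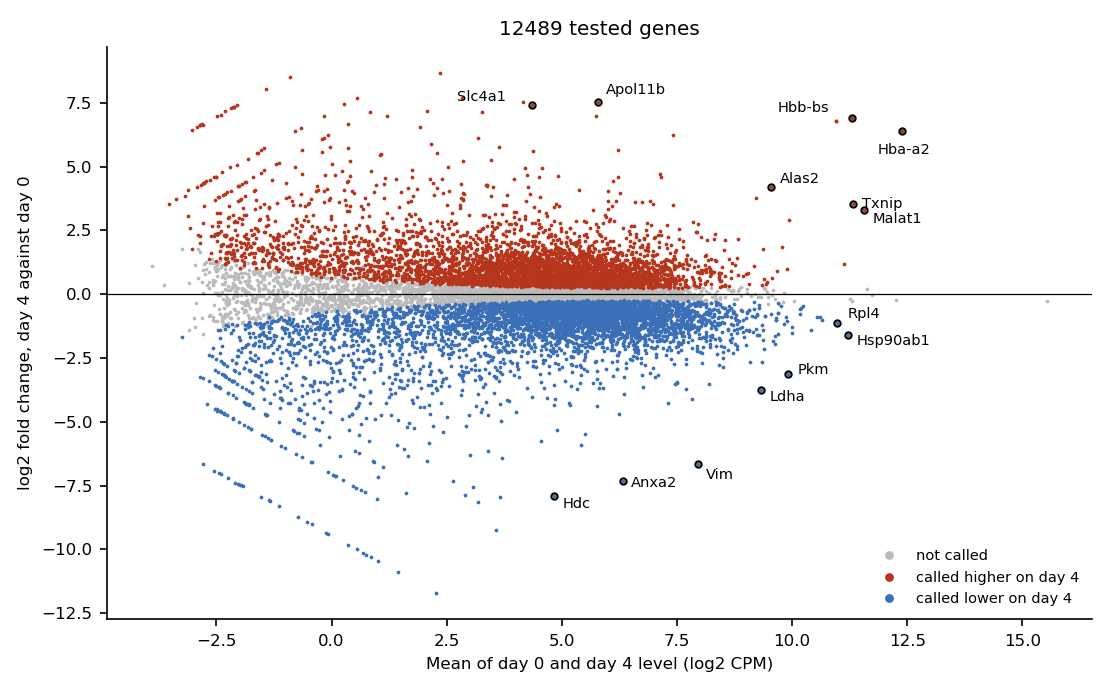
Log2 fold change, day 4 against day 0, on the vertical axis against the log2 mean CPM (read counts scaled to library size) of the 2 days on the horizontal axis, 1 point per tested gene (12489 genes, mean of 2 libraries per day). Red points were called higher (4444 genes), blue points lower (4529 genes) and grey points were not called; named genes are circled, with the globins at the upper right and Vim, Anxa2 and Hdc at the lower edge.

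The share of reads that changed hands was larger than the difference between replicates. Between the mean of day 0 and the mean of day 4, 27.1% of reads were redistributed among genes (the sum of the absolute differences in share, divided by 2), and the 4 pairs of single libraries gave 26.1 to 28.6%. The same measure was 7.94% between the day 0 replicates, 3.93% between the day 2 replicates and 4.9% between the day 4 replicates. From day 0 to day 2 it was 18.6% and from day 2 to day 4 12.7%. The gains were more concentrated than the losses. The 10 genes with the largest gain in share took 27.7% of all gain, whereas the 10 with the largest loss made up 8.56% of all loss. Among the largest gains were the globin pairs Hba-a1 with Hba-a2, Hbb-bs with Hbb-b1 and Hbb-bt with Hbb-b2. The genes of each pair had nearly the same counts, so that reads shared by copies may enter this gain more than once.

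TPM, in which each count is divided by exon length and scaled to a fixed total so that genes can be compared, showed the same concentration at the top. The 10 most abundant genes held 8.71 and 9.27% of TPM on day 0 and 21.1 and 22.3% on day 4. Ranks 1 and 2 of day 4 were held by Hba-a2 and Hba-a1, whose shared reads may likewise be counted more than once. Of the 50 most abundant genes of each day 30 (60%) were common to both. By reads, the 100 most counted genes of a library held 21.9 and 22% on day 0 and 24.2 and 26.1% on day 4, a difference that had the opposite sign with the globins left out. Genes without a known length, which held 7.17 to 9.05% of reads, have no TPM and are missing from these ranks; they include an accession without a symbol that was the most counted entry of the series. A level of at least 10 TPM was reached by 8183 genes on both days, by 487 on day 0 only and by 852 on day 4 only.

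Globins made up the largest block of the gain. The 12 listed globin genes took 0.0619 and 0.0496% of reads on day 0 and 5.58 and 5.95% on day 4, and all 9 that were tested were called higher, with a median log2 fold change of 6.41. Hba-a2, an adult α-globin gene on chromosome 11, went from 748 and 697 TPM to 60155 and 68474 TPM, and from rank 148 to rank 1 (log2 fold change 6.41 ± 0.20 SE, adjusted p = 6.88e-09). The day 4 libraries were far above those of day 0 in both replicates. Its twin Hba-a1 and the pairs Hbb-bs with Hbb-b1 and Hbb-bt with Hbb-b2 had nearly the same counts, so that reads shared by copies may be counted more than once; with such copies counted once, the gain of the globin class was 2.98 in place of 5.71 percentage points. Hba-x, the embryonic ζ-type α-globin, went from 17.6 and 18 TPM to 890 and 1909 TPM, so the day 4 replicates differed from each other while both lay above day 0 (log2 fold change 6.23 ± 0.36, adjusted p = 1.19e-07, 5.55 without day 4 replicate 2).

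The enzymes of heme synthesis rose with them at nearly every step. The class took 0.106 and 0.0945% of reads on day 0 and 0.454 and 0.468% on day 4, and of its 9 genes 8 were called higher and 1 lower, with a median log2 fold change of 1.84. Alas2, the erythroid form of the first and rate-limiting enzyme, went from 140 and 100 TPM through 521 and 601 TPM on day 2 to 2210 and 2454 TPM on day 4 (log2 fold change 4.21 ± 0.18, adjusted p = 1.89e-08), and from rank 1770 to rank 25. Alad, the second enzyme, rose from 426 and 298 TPM to 1670 and 1601 TPM (2.11 ± 0.16, adjusted p = 8.27e-07). The last enzyme Fech, which inserts iron, rose by a log2 fold change of 1.90 ± 0.11 and the next to last, Ppox, by 1.84 ± 0.11. Alas1, the form used in other tissues, rose by 0.36 ± 0.12 (adjusted p = 0.0234). Cpox, a mitochondrial enzyme between these steps, was the exception and fell from 7556 and 11376 counts to 3658 and 4779 (log2 fold change -1.0 ± 0.12, adjusted p = 2.36e-05).

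Iron genes rose by less. Their share went from 0.217 and 0.211% to 0.425 and 0.444% of reads, with 8 of 10 genes called higher and 1 lower and a median log2 fold change of 0.62. Slc25a37, the mitochondrial iron importer mitoferrin-1, rose from 1641 and 2209 counts to 9791 and 9232 (log2 fold change 2.49 ± 0.15, adjusted p = 1.63e-07). Tfrc, the transferrin receptor, had 10420 and 12159 counts on day 0, 10604 and 12564 on day 2 and 19857 and 27796 on day 4 (1.22 ± 0.12, adjusted p = 3.49e-06), so that its day 2 libraries lay within the range of day 0 counts or just above it. Fth1, the heavy chain of ferritin, rose from 1457 and 1277 TPM to 2759 and 2898 TPM (0.98 ± 0.13, adjusted p = 3.79e-05) and was among the 12 largest rises in TPM. Steap3, a ferrireductase, fell by a log2 fold change of -0.35 ± 0.12 (adjusted p = 0.0186) and was not called when libraries were scaled to total counts.

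Genes of the red cell membrane and its skeleton went from 0.38 and 0.378% to 0.97 and 1.04% of reads, with 20 of 24 called higher, 3 lower and a median log2 fold change of 1.61. Slc4a1, the anion exchanger band 3, had 9 and 12 counts on day 0, 203 and 303 on day 2 and 1710 and 1513 on day 4 (log2 fold change 7.42 ± 0.28, adjusted p = 9.69e-09). The days did not overlap, and the level was still several times higher on day 4 than on day 2. Epb42, protein 4.2, which ties band 3 to ankyrin, rose from 189 and 225 to 2845 and 3540 counts (4.10 ± 0.13).
Sptb, the β-spectrin of the skeleton, rose from 8467 and 12408 to 58015 and 82868 counts (2.91 ± 0.16, adjusted p = 7.57e-08), and its share of reads from 0.0308 to 0.25%. Slc2a1, the glucose transporter GLUT1, went the other way, from 4209 and 5176 to 302 and 455 counts (-3.49 ± 0.15, adjusted p = 1.66e-08), and Add2, β-adducin, fell by -1.18 ± 0.12.

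Outside these classes the largest gains in abundance were few. Txnip, a thioredoxin-binding arrestin that limits glucose uptake, rose from 493 and 427 TPM through 3458 and 3296 on day 2 to 5582 and 5668 TPM (log2 fold change 3.54 ± 0.15, adjusted p = 1.85e-08) and became the gene of rank 8. Malat1, a nuclear long noncoding RNA, rose from 220 and 286 TPM through 1972 and 1928 to 2245 and 3006 TPM (3.30 ± 0.21, adjusted p = 1.93e-07), and its share of reads from 0.0747 to 0.795%. For both genes most of the rise was present on day 2, unlike Alas2, which stood at 521 and 601 TPM on that day. Tmem131, a transmembrane protein with a role in collagen secretion, gained more share of reads than any single heme enzyme, from a share of 0.183 to 0.454% (1.20 ± 0.13, adjusted p = 9.97e-06).
The microRNA entries Mir7676-1 and Mir7676-2, identical to each other, went from 619 and 449 TPM to 3361 and 3345 TPM. Each is 62 bases long, so that few reads give a high TPM: the counts were 483 and 439 and then 2210 and 2835. Their hairpins lie at chr15:78284788-78284849 inside Csf2rb2 and at chr15:78348599-78348660 inside Csf2rb, both of which encode β-chains of the IL-3 receptor. The reads of the hairpins therefore cannot be told apart from those of the host genes. Csf2rb2 itself rose from 3506 and 3850 to 42545 and 47158 counts (3.76 ± 0.15, adjusted p = 1.24e-08) and Csf2rb from 15423 and 19099 to 51877 and 59374 (1.85 ± 0.13, adjusted p = 4.7e-07).

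**Figure D2:**
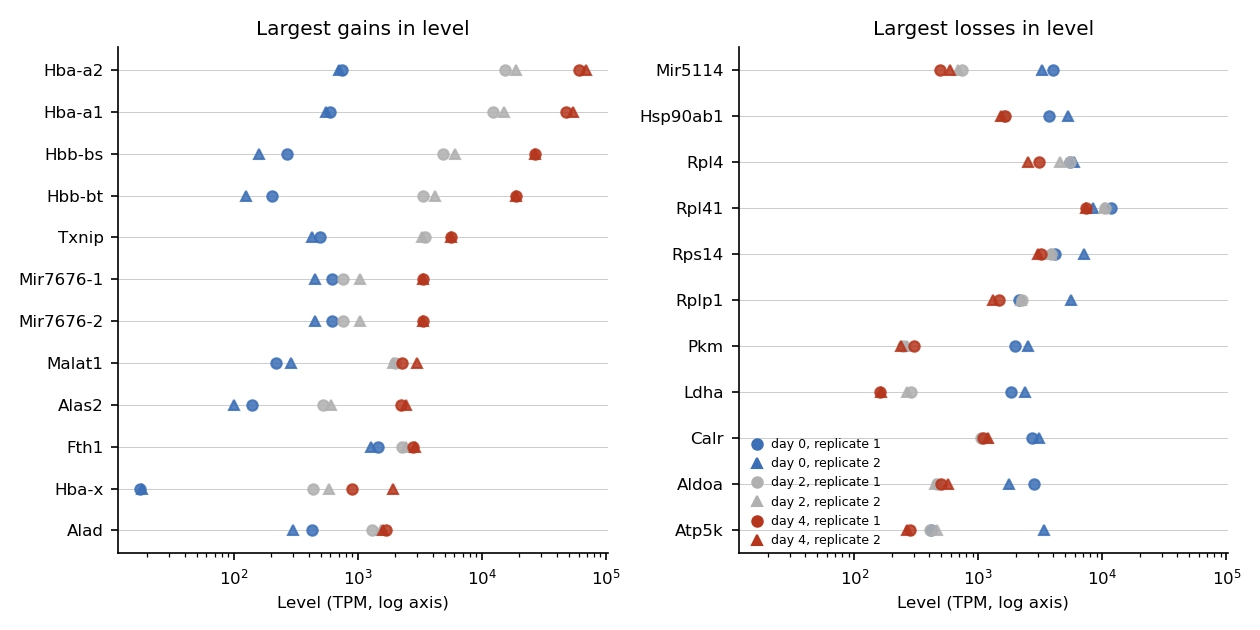
TPM on a log axis for the genes named for the largest gains and losses of TPM between day 0 and day 4, 1 marker per library (blue day 0, grey day 2, red day 4; circle replicate 1, triangle replicate 2). The α-globins are highest and move from 748 and 697 TPM to 60155 and 68474 TPM in the case of Hba-a2, the glycolytic gene Pkm reaches its low level by day 2 while Ldha falls further after it, and Atp5k and Rplp1 show day 0 replicates that lie apart.

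Of all classes glycolysis had the lowest ratio of day 4 to day 0 share. Chaperones, cell division, ribosome biogenesis, cytosolic ribosomal proteins, translation factors and accessions without a symbol lost more percentage points of reads. Glycolysis held 0.91 and 0.991% of reads on day 0, 0.247 and 0.252% on day 2 and 0.222 and 0.22% on day 4. Of its 18 tested genes 15 were called lower and 1 higher, with a median log2 fold change of -1.98. Ldha, lactate dehydrogenase A, fell from 1821 and 2369 TPM to 161 and 163 TPM (log2 fold change -3.76 ± 0.16, adjusted p = 1.89e-08). Pkm, pyruvate kinase M, fell from 1986 and 2511 TPM to 300 and 238 TPM (-3.14 ± 0.17, adjusted p = 7.63e-08). Hk2, hexokinase 2, which opens the pathway, fell from 5373 and 8727 to 383 and 444 counts (-3.91 ± 0.15, adjusted p = 1.24e-08), and Aldoa, aldolase A, from 2782 and 1752 TPM to 502 and 571 TPM (-2.14 ± 0.19, adjusted p = 1.96e-06). The days did not overlap in these 4 genes, as in 10593 of the 12489 genes tested.
Bpgm, the 1 glycolytic gene called higher, makes the 2,3-bisphosphoglycerate that lowers the oxygen affinity of hemoglobin in red cells. It rose from 527 and 558 to 1071 and 1224 counts (1.23 ± 0.13, adjusted p = 9.75e-06). Pfkm, the muscle type phosphofructokinase, was not called (0.22, adjusted p = 0.172).

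Genes of cell division and DNA replication fell without exception, 64 of 64 (background 36.3%), from 1.75 and 1.74% to 0.777 and 0.756% of reads with a median log2 fold change of -1.38. Mcm5, a subunit of the replicative helicase, fell from 27090 and 30968 to 4607 and 6929 counts (log2 fold change -2.20 ± 0.13, adjusted p = 1.37e-07). Top2a, topoisomerase IIα, fell by -1.0 ± 0.13 and Mki67, the proliferation antigen Ki-67, by -0.91 ± 0.14, so that Mki67 still held 0.157% of reads on day 4. Dnmt1, the maintenance DNA methyltransferase, was among the largest losses in share of reads, from 0.203 to 0.0766% (-1.51 ± 0.13, adjusted p = 1.83e-06).
The histones, 80 of whose 102 genes were tested, had 60 called lower and 7 higher and a median log2 fold change of -1.98. Among those that rose, the linker histone H1f0, which is known from cells leaving the cycle, went from 2178 and 2806 to 8756 and 12536 counts (2.24 ± 0.12, adjusted p = 7.16e-08), and the replacement variant H3f3a rose by 0.89. H2az1, a variant H2A, fell from 14651 and 37180 to 3791 and 4983 counts (-2.36 ± 0.26, adjusted p = 1.1e-05), and without day 0 replicate 2 its log2 fold change was -1.75. H2ac23 and H2ac24, near-identical H2A genes whose reads may be shared, fell by -2.91 ± 0.13.

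The machinery that makes ribosomes fell as a whole, and the ribosome itself by less. All 51 ribosome biogenesis genes were called lower, with a median log2 fold change of -1.58 and a share of reads that went from 1.2 and 1.36% to 0.478 and 0.389%. Ncl, nucleolin, fell from 37693 and 74067 to 12929 and 14286 counts (log2 fold change -1.84 ± 0.20, adjusted p = 8.71e-06), and Npm1, nucleophosmin, from 11515 and 16933 to 3308 and 3529 (-1.88 ± 0.14, adjusted p = 7.7e-07).
Of 83 tested cytosolic ribosomal proteins 51 (61.4%, background 36.3%) were called lower and 6 higher, and the median log2 fold change was -0.46. Their share went from 3.13 and 3.45% to 2.55 and 2.35% of reads, or from 9.26 and 10% to 7.35 and 6.96% of TPM. Rpl4 fell from 5515 and 5857 TPM to 3055 and 2508 TPM (-1.11 ± 0.15, adjusted p = 6.07e-05). Rplp1, a stalk protein, had 2140 and 5542 TPM on day 0 and 1467 and 1310 TPM on day 4, and its log2 fold change of -1.55 ± 0.33 became -0.69 without day 0 replicate 2. Rps14 behaved likewise, with -0.94 ± 0.21 and, without that library, -0.49. Mitochondrial ribosomal proteins fell in 63 of 78 tested genes against 1 higher, with a median of -0.91, and Mrpl12 fell from 9747 and 17984 to 1765 and 1872 counts (-2.74 ± 0.18, adjusted p = 3.02e-07).

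Other parts of protein synthesis and folding followed the same direction. Translation factors went from 3.36 and 3.02% to 2.51 and 2.29% of reads, with 48 of 68 called lower, 8 higher and a median log2 fold change of -0.83. Eif5a, which is needed for elongation through proline-rich stretches, fell from 38904 and 46293 to 11785 and 13107 counts (log2 fold change -1.61 ± 0.12, adjusted p = 7.1e-07). Of 35 aminoacyl-tRNA synthetases 28 were called lower and 1 higher (median -1.14), and Nars, which charges asparagine tRNA, fell from 19624 and 23906 to 4909 and 4365 counts (-2.05 ± 0.16, adjusted p = 7.83e-07). Splicing proteins of the hnRNP, SR and Sm families were called lower in 49 of 64 genes and higher in 3 (median -0.81). Srsf5, an SR splicing factor, was one of the 3 that rose (0.96 ± 0.11, adjusted p = 1.57e-05).
Chaperones held 2.56 and 2.67% of reads on day 0 and 1.29 and 1.25% on day 4. Of 67 tested 36 (53.7%, background 36.3%) were called lower and 15 higher, with a median of -0.55. Hsp90ab1, the constitutive cytosolic HSP90, lost more share of reads than any other named gene, from 0.48 to 0.173%, and fell from 3695 and 5322 TPM to 1641 and 1528 TPM (-1.58 ± 0.18, adjusted p = 1.37e-05). Hspa5, the chaperone of the endoplasmic reticulum, fell by -1.02, and Calr, a calcium-binding chaperone of the same compartment that is not in the list, from 2701 and 3108 TPM to 1090 and 1195 TPM (-1.42 ± 0.14, adjusted p = 5.53e-06). Dnajb2, a co-chaperone that binds ubiquitin, went from 691 and 757 to 6735 and 9586 counts (3.63 ± 0.12, adjusted p = 6.88e-09).
Proteasome genes were called lower in 39 of 49 cases and higher in 3 (median -1.07), and the share went from 1.22 and 1.07% to 0.667 and 0.614%. Psma7, a core subunit, fell by -1.26, and the activator Psme4 was one of those that rose (0.59).

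Oxidative phosphorylation lost less than glycolysis did. Its share was 1.64 and 1.48% on day 0 and 1.2 and 1.12% on day 4. Of 83 tested genes 47 (56.6%, background 36.3%) were called lower and 5 higher, with a median log2 fold change of -0.46. Atp5b, the catalytic subunit of ATP synthase, fell by -0.89 ± 0.15 (adjusted p = 0.000288). Atp5k, a small subunit of the same enzyme, had 415 and 3360 TPM on day 0 and 282 and 265 TPM on day 4, and its log2 fold change of -2.88 ± 0.66 was -0.66 without day 0 replicate 2.
Actin and tubulin genes were called lower in 21 of 36 cases (58.3%, background 36.3%) and higher in 9 (median -0.64). Tuba1b, an α-tubulin, stood at -1.77 and Myl6, a myosin light chain, at 0.80.

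A smaller group of classes gained. Autophagy genes, whose products remove mitochondria and other organelles during red cell maturation, were called higher in 19 of 32 cases (background 35.6%) and lower in 6, with a median log2 fold change of 0.53 and a share that went from 0.187 and 0.208% to 0.28 and 0.279%. Map1lc3b, which coats the forming vesicle, rose by 1.07 ± 0.16 (adjusted p = 0.000117) and its relative Gabarap by 0.93 ± 0.10 (adjusted p = 1.08e-05). Bnip3, a mitophagy receptor, went the other way, from 1616 and 7792 to 349 and 445 counts, with a log2 fold change of -3.33 ± 0.47 that was -2.03 without day 0 replicate 2.
Zinc finger proteins, many of them transcriptional repressors, were called higher in 191 of 375 tested genes (50.9%, background 35.6%) and lower in 60 (median 0.39). Their share went from 1.08 and 1.12% to 1.51 and 1.47% of reads. Zc3h11a, an RNA export factor, rose by 1.37 ± 0.13, and Zfp809, which silences retroviral sequence, by 1.08. Solute carriers were called higher in 106 of 208 genes (51%, background 35.6%) and lower in 57. Their share of reads hardly moved, from 1.03 and 0.974% to 1.05 and 1.05%. Slc38a5, a glutamine transporter, rose by 1.87 ± 0.15 and Slc25a5, a mitochondrial ADP/ATP carrier, fell by -2.19 ± 0.11.
Interferon response and MHC genes split, 25 of 63 higher and 14 lower, a share of rises close to the background of 35.6%. Oasl1, an interferon-induced protein, fell from 2955 and 2987 to 291 and 360 counts (-3.05 ± 0.14, adjusted p = 2.27e-08), whereas Ifi27 rose by 1.03 ± 0.13. In the ubiquitin system 30 of 78 genes were called higher and 25 lower, also near the background, with a median of -0.06.
Long noncoding RNAs took 0.501 and 0.54% of reads on day 0 and 1.16 and 1.35% on day 4. Malat1 alone went from 0.0747 to 0.795%. The noncoding RNA class holds genes of no other class whose counted transcript is noncoding in RefSeq. Of its 953 tested genes 307 (32.2%) were called higher and 266 (27.9%) lower, both below the background of 35.6% and 36.3%. Among them were 122 protein-coding genes, 44 called higher and 47 lower.

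**Figure D3:**
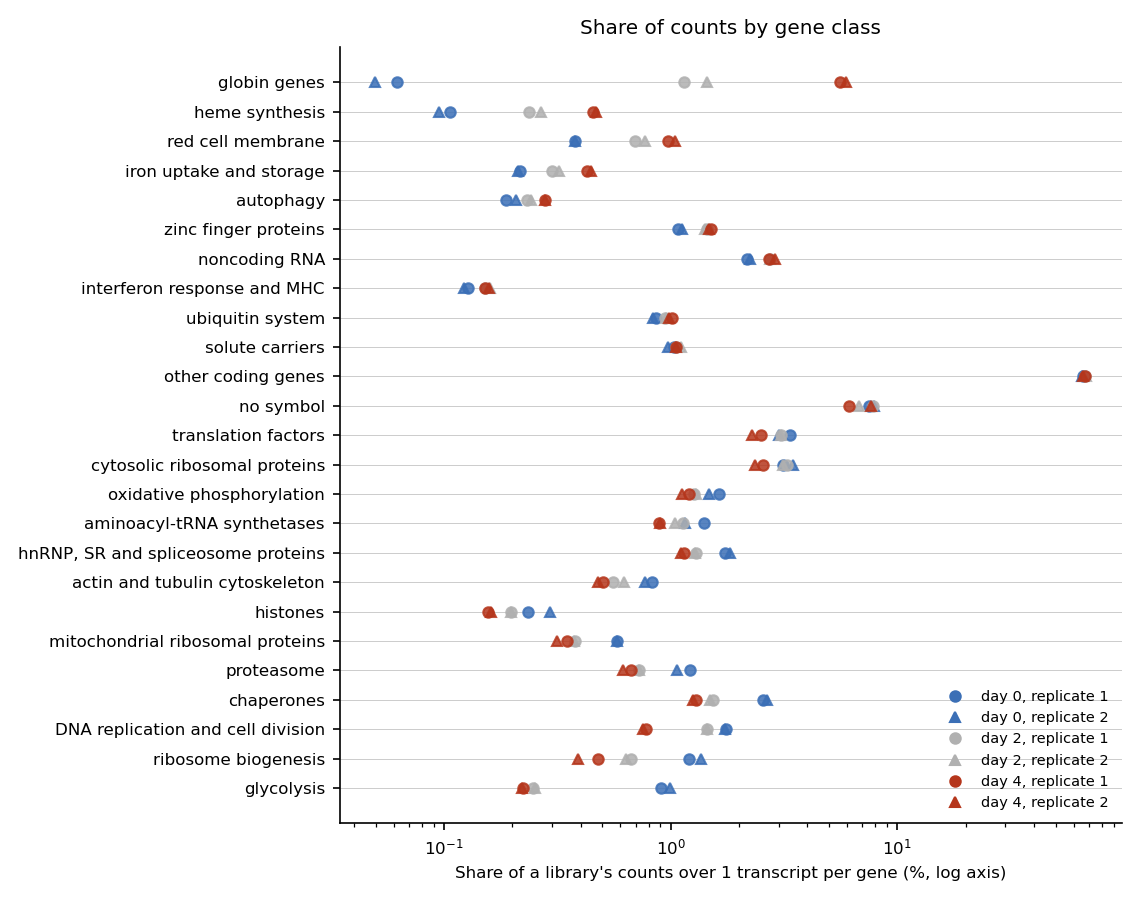
Share of a library's reads (percent, log axis) held by each of 25 classes that do not overlap, ordered by the ratio of day 4 to day 0, 1 marker per library (blue day 0, grey day 2, red day 4; circle replicate 1, triangle replicate 2). Globins end at 5.58 and 5.95% from 0.0619 and 0.0496%, glycolysis ends at 0.222 and 0.22% from 0.91 and 0.991%, and the days overlap for other coding genes and for accessions without a symbol.

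Coding genes in none of the classes held 65.8 and 65.5% of reads on day 0 and 67 and 65.7% on day 4, so the days overlapped in reads, while in TPM the share on day 4 minus that on day 0 was -5.80 points. Of its 9844 tested genes 3611 rose and 3496 fell, close to the background of 35.6% and 36.3%. Of all called genes with a length, the noncoding entry Mir5114 had the largest fall in TPM, from 4029 and 3264 to 490 and 595 TPM. It is 61 bases long, so that few reads give a high TPM: the counts were 3091 and 3141 and then 317 and 496. Its hairpin lies at chr19:44303171-44303231 inside Scd2, a stearoyl-CoA desaturase. Scd2 fell from 47950 and 52474 to 5713 and 8998 counts (log2 fold change -2.64 ± 0.14, adjusted p = 8.38e-08), and reads of hairpin and host cannot be told apart. Serbp1, an mRNA-binding protein of the ribosome, lost share from 0.169 to 0.0476%, and Mt1, a metal-binding metallothionein, fell from 12933 and 13527 to 2434 and 3427 counts (-2.04 ± 0.13, adjusted p = 2.42e-07).

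The largest rises by ratio, beside the globins and Slc4a1, were in genes of less known erythroid role. Ripor3 had 7 and 10 counts on day 0 and 1017 and 1908 on day 4 (log2 fold change 7.53 ± 0.30, adjusted p = 1.24e-08). Apol11b, an apolipoprotein L, had 31 and 22 counts and then 4621 and 4052 (7.52 ± 0.32, adjusted p = 1.89e-08), and Apol11a 6 and 6 counts and then 893 and 611 (7.14 ± 0.46, adjusted p = 2.14e-07). In all 3 genes the days were far apart in both replicates.
The apolipoprotein L genes form a cluster on chromosome 15, and others of its members were looked at after these values were seen. Of the 13 Apol genes in the files, 1 of them on chromosome 1, 8 had at most 2 counts in every library. Apol10b rose from 2 and 3 to 15 and 26 counts (3.12 ± 0.51, adjusted p = 0.000217) and Apol8 from 35 and 38 to 107 and 117 (1.77 ± 0.23, adjusted p = 3.16e-05), with day 2 the highest day for Apol8 at 211 and 296. Reads may be split among these related genes.

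Of the 10 largest falls by ratio several were of genes known from other blood cells. Hdc, the histidine decarboxylase that makes histamine in mast cells and basophils, had 2410 and 2679 counts on day 0, 54 and 47 on day 2 and 10 and 9 on day 4 (log2 fold change -7.90 ± 0.22, adjusted p = 6.88e-09). Vim, the intermediate filament vimentin, fell from 18380 and 26349 through 397 and 338 to 173 and 223 counts (-6.66 ± 0.19, adjusted p = 6.88e-09). Anxa2, a calcium-dependent membrane-binding annexin, fell from 6108 and 8397 through 144 and 104 to 32 and 50 counts (-7.31 ± 0.23, adjusted p = 6.88e-09). In these 3 genes nearly the whole fall was present on day 2.
Siglecf, a sialic acid-binding receptor of eosinophils, fell from 3759 and 3820 to 62 and 51 counts (-5.91 ± 0.24, adjusted p = 1.34e-08), and Il1rl1, the IL-33 receptor of mast cells, from 2004 and 3299 to 65 and 52 (-5.31 ± 0.23, adjusted p = 2.14e-08). Cd200r4, an activating receptor of myeloid cells, fell from 1067 and 1261 to 11 and 13 counts (-6.43 ± 0.20, adjusted p = 6.88e-09). Fbp2, a fructose bisphosphatase, fell from 1077 and 1182 to 4 and 4 counts (-7.95 ± 0.28, adjusted p = 8.22e-09). Thy1, a surface glycoprotein of T cells and stem cells, had 52 and 15 counts left from 2048 and 2075, so the day 4 replicates differed (-5.77 ± 0.37, and -7.10 without day 4 replicate 1).

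Genes that were switched on or off were defined by raw counts alone, as at most 3 in both libraries of one day and at least 30 in both libraries of the other. Since the counts chose these genes, no test is given for them. The rule took 21 genes switched on and 77 switched off, all of which had passed the filter on low counts. The lowest count on the high day was 30 in either direction, and the nearest genes outside the limit had 26 counts in their lower library for switching on and 29 for switching off. With a lower library of 20 to 29 counts a further 13 and 26 genes stood just outside. Neither set carried much RNA: the 21 genes held 0.0101% of day 4 reads and the 77 genes 0.0257% of day 0 reads, with median levels of 2.29 and 2.61 TPM.

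The most counted genes switched on had mixed known roles. Nptxr, the neuronal pentraxin receptor, had 3 and 3 counts on day 0, 322 and 281 on day 2 and 310 and 894 on day 4, a ratio of depth-scaled levels of 241 (95% interval 111 to 659, for counting error only, as are all such intervals here). Because the rule took genes with a large difference in counts, these ratios and intervals are large by choice and describe the genes only. Apol10a, another apolipoprotein L of the chromosome 15 cluster, had 2 and 0, then 99 and 166, then 456 and 354 counts, a ratio of 487 (134 to 4029). Siglec1, the macrophage receptor sialoadhesin, had 3 and 2, then 107 and 150, then 209 and 490 counts, a ratio of 168 (71.7 to 519). The raw counts of the day 4 replicates differ by over 2-fold in Nptxr and Siglec1, while every day 2 and day 4 library is far over the limit of 3.
Tmprss6, the membrane protease that holds back hepcidin and so raises iron uptake, had 2 and 0 counts on day 0, 31 and 42 on day 2 and 76 and 135 on day 4, a ratio of 127 (34.7 to 1055). Adam33, a metalloprotease whose gene at chr2:131050819-131063814 lies beside Siglec1 at chr2:131067801-131086778, had 1 and 2, then 58 and 66, then 94 and 294 counts. Rps6ka6, the kinase RSK4, had 0 and 2, then 39 and 45, then 141 and 143 counts, and Tmc3, of the family of transmembrane channel-like proteins, 0 and 1, then 53 and 65, then 84 and 157. Myl10, a myosin light chain, ended at 74 and 134 counts, Tmem132b at 60 and 142 and Pla2g3, a secreted phospholipase, at 61 and 101. The other 11 were Fendrr, the 1 noncoding RNA among them, and Spdef, Grk1, Acot12, Tgm4, Gbp6, Mapk15, Tcp10b, Gabrr2, Gm960 and Ldb3. Over the 21 genes the ratios ran from 30.4 to 487 with a median of 115, and none was at 0 in both day 0 libraries. All 21 were over 3 counts in both day 2 libraries, a value the rule did not use, at a median of 34.9% of their day 4 level.

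Of the genes switched off 3 were in the mast cell marker list and 1 in the lymphoid list described further on. Gzmb, granzyme B, a protease of cytotoxic granules, was the most abundant, with 1001 and 1133 counts on day 0, 15 and 10 on day 2 and 3 and 0 on day 4. Cd53, a leukocyte tetraspanin, had 536 and 567, then 16 and 10, then 3 and 3 counts. Tyrobp, the signaling adaptor DAP12, had 290 and 250, then 12 and 11, then 1 and 1. For these genes almost all of the loss preceded the day 2 collection.
Cd200r3, an activating receptor related to the receptor for CD200, went from 416 and 444 through 7 and 2 to 0 and 0 counts and was at least 128-fold lower, computed against a floor of 3 counts per library. Pilrb1, a paired immunoglobulin-like receptor, went from 241 and 250 to 0 and 0 (at least 73.3-fold lower), and Clec4d, a C-type lectin receptor of myeloid cells, from 171 and 191 to 0 and 0 (at least 53.8-fold lower). Ms4a2, the β-chain of the high-affinity IgE receptor, went from 114 and 150 through 7 and 7 to 0 and 0 (at least 38.9-fold lower), and its partner Fcer1a from 60 and 72 through 3 and 3 to 1 and 0. Cpa3 went from 77 and 114 through 1 and 1 to 0 and 1. Thus the promoters of Fcer1a and Cpa3 printed above belong to genes that were at 3 or fewer counts by day 2.
C1s1, a complement protease, ended at 2 and 1 counts from 173 and 215, Ccl9, a chemokine, at 1 and 1 from 144 and 219, Tespa1, which takes part in T cell signaling, at 1 and 0 from 156 and 203, and Cd200r2 at 1 and 2 from 162 and 177. Also in the set, chosen here after their values were seen, were the antiapoptotic Bcl2a1a, Bcl2a1b and Bcl2a1d, the B cell receptor component Cd79b, the receptors Ccr1, C3ar1, Flt1 and Fgfr1, and the granulocyte transcription factor Cebpe.
Of the 77 genes 14 were at 0 in both day 4 libraries and were at least 12.1 to 128-fold lower, and the other 63 had ratios of 11.2 to 591 with a median of 48.2. On day 2 they stood at a median of 5.33% of their day 0 level, 23 were already at 3 or fewer counts in both libraries, and 60 were under 10% of day 0. A gene of the set lay within 200 kb of another one in 6 cases, the pairs Cd200r2 and Cd200r3 on chromosome 16, Pilra and Pilrb1 on chromosome 5 and Slamf9 and Cfap45 on chromosome 1, and in 2 cases among the genes switched on, Adam33 and Siglec1. Reads may be shared among the Cd200r, Pilr and Bcl2a1 relatives. Cd200r1, the inhibitory member of its family, was not switched off and fell from 442 and 469 to 71 and 91 counts (log2 fold change -2.35 ± 0.17, adjusted p = 5.5e-07).

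Leaving out 1 library removes a condition of the rule, so the 2 sets could only stay the same or grow. Without day 0 replicate 2 the genes switched on numbered 34 and without day 4 replicate 1 38. The genes switched off ranged from 81 to 100 when any 1 library was left out.

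**Figure D4:**
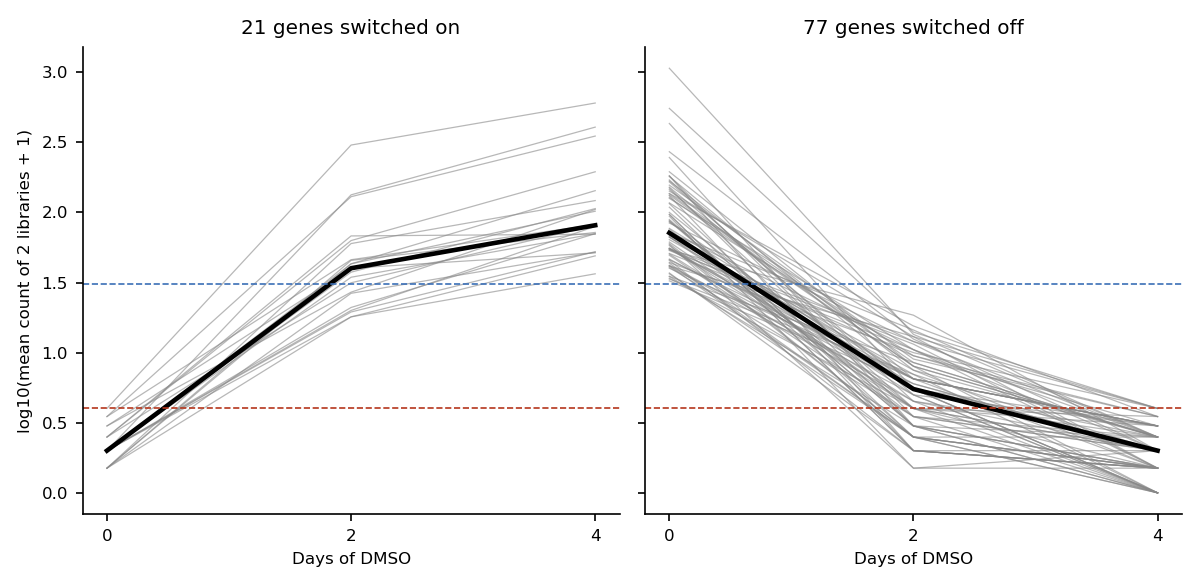
Counts over time of the 21 genes switched on (left) and the 77 switched off (right), as log10 of the mean count of the 2 libraries of a day plus 1, against days of DMSO. Grey lines are genes, the black line is their median, and the dashed lines mark the limits of 3 (red) and 30 (blue) counts; the switched off genes drop mainly before day 2 (median 5.33% of day 0), and the switched on genes are part of the way up on day 2 (median 34.9% of day 4).

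The cell type was checked against marker genes of blood lineages. The summed level of 9 erythroid markers was 915 and 973 CPM on day 0 and 17340 and 19465 CPM on day 4, and 8 were called higher and 1 lower. Tal1 rose by a log2 fold change of 1.92 and Epor, the erythropoietin receptor, by 1.34. Gata1 was called higher at 0.37, which was 0.36 with an adjusted p of 0.05 without day 4 replicate 2. Klf1 was the marker called lower, with 7840 and 15348 counts on day 0 and 6233 and 7743 on day 4. Its day 0 replicates lay apart, and its log2 fold change of -0.54 ± 0.18 (adjusted p = 0.0188) was -0.17 without day 0 replicate 2 (adjusted p = 0.156).
The 6 blood progenitor markers summed to 625 and 725 CPM on day 0 and 143 and 107 CPM on day 4. Spi1, encoding PU.1, the factor whose activation by the virus drives this leukemia, fell from 4046 and 5959 to 391 and 301 counts (-3.66 ± 0.20), and Kit, the stem cell factor receptor, had 23 and 24 counts on day 0 and 0 and 0 on day 4. Gata2 was not called (0.13, adjusted p = 0.434).
Mast cell markers summed to 66.1 and 61.5 CPM on day 0 and 1.08 and 0.685 CPM on day 4, mostly through Hdc, while the mast cell tryptases Tpsab1 and Tpsb2 were at 0 in every library. Apart from Ms4a2, Fcer1a and Cpa3, which the count rule for switched off genes had taken, Hdc and Mcpt4 were called lower, Mcpt4 not with DESeq2. Cma1, the other marker tested, went from 11 and 1 to 14 and 9 counts and was not called (1.07, adjusted p = 0.219). Neutrophil and monocyte markers were at 19 and 21.4 CPM and then 12.1 and 13.3 CPM, with Ngp, S100a8 and S100a9 at 0 throughout. Lymphoid markers summed to under 1.7 CPM in each library, with Cd8a, Klrb1c and Ms4a1 at 0. Of the 2 tested, the switched off Cd79b was called lower. Cd3g was called higher, from 2 and 6 to 16 and 26 counts (2.51 ± 0.48, adjusted p = 0.000663). Markers of fibroblasts and endothelium summed to 1.3 to 3.67 CPM on the compared days, with Cdh5, Col3a1 and Dcn at 0.
Megakaryocyte markers were present and split in direction, with 4 of 7 called higher and 3 lower. Their sum was 289 and 297 CPM on day 0 and 564 and 636 CPM on day 4. That rise came mostly through Itga2b, which stood at 209 and 227 CPM and then at 531 and 606 CPM. Itga2b, the integrin αIIb, rose from 8514 and 11269 to 19162 and 27437 counts (1.38 ± 0.13) and Vwf, von Willebrand factor, from 48 and 41 to 520 and 562 (3.75), whereas Pf4, platelet factor 4, fell from 2341 and 2117 to 368 and 404 (-2.39). In these bulk libraries fewer cells of a type and less RNA per cell cannot be told apart.

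Gene length moved with the change in level. Genes with under 1000 exon bases had a median log2 fold change of -0.24 (1221 genes) and genes with over 4000 exon bases one of 0.25 (3437 genes), against -0.02 to 0.02 between replicates of a day. Its part in the class results, in which ribosomal proteins are short and β-spectrin long, was not tested.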

How the data were processed

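Per the labels and the study's methods, RNA of MEL cells was made into stranded mRNA-seq libraries, reads were trimmed with cutadapt and aligned with TopHat to mm10, and HTSeq and DESeq2 are also among the tools named in the submitters' processing notes. The strand setting and annotation release of the counting are not given in the sources used here. The authors deposited raw counts per RefSeq transcript, 1 file per library with no pooling, and the values analysed here are those counts of 32654 transcripts; 5 bookkeeping lines, among them reads in no feature, were left out. Symbols, exon lengths and promoters came from RefSeq and GENCODE tables of GRCm38, the assembly of mm10. The transcript with the highest mean count over the 6 libraries stood for its gene; 268 accessions without a symbol were kept as genes, and 413 genes without a length have no TPM. TPM and CPM were computed here.

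All 6 libraries were fitted together in edgeR 4.0.16 (R 4.3.3; filterByExpr, TMM scaling, quasi-likelihood test, Benjamini-Hochberg over 18351 transcripts), with no covariate. On simulated counts with 200 transcripts changed, 51% were recovered at 1.5-fold, 96% at 2-fold and 100% at 4-fold, and 4.67 to 6.1% of calls were false. In the simulation equal numbers rose and fell and all other transcripts were unchanged. In the real data 71.8% of the tested genes were called, so these rates need not hold there. DESeq2 1.42.0, other scalings, filters, limits and libraries left out were alternatives. Text names the 12 largest rises and falls in TPM, the 10 most counted genes switched each way, the 10 largest and smallest fold changes at an average log2 CPM of 3 or more, called class members with the highest TPM or the largest change in share, and marker genes; any other gene was chosen after its values were seen, and some genes that the rule takes are not reported here. Members, classes and lists were chosen with earlier results of these data known. Fold changes and SE are on the log2 scale of the fit, and percentages are of reads over 1 transcript per gene. Intervals and floors cover counting error only.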

Additional observations from a re-analysis of the deposited data

How the results depend on the processing

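Leaving out 1 library at a time gave 3799 to 4582 genes called higher and 3998 to 4745 called lower, and the other alternatives 4147 to 4971 and 4031 to 4779; a limit of 2-fold left 2098 and 2350. The replicate numbers did not pair the libraries (correlation of deviations 0.045 between days 0 and 4). With the replicate block 4448 genes were called higher and 4506 lower, and of 184 named genes 183 kept their call, Mir8094 not (adjusted p = 0.0634). DESeq2 kept the call of 180, scaling to total counts of 179 and leaving out 1 library of 168 to 179, and no call reversed. The redistributed share of reads was 25.9% with near-identical genes counted once, 32% in TPM, 24.6% without globins, 28.6% without accessions lacking a symbol (chosen after seeing the data) and 26.6 to 28.1% with 1 library left out. The rise in the share of the 100 top genes, 3.16 points, was 1.20 with near-identical genes counted once, 10.9 in TPM, -0.953 without globins and 2.22 to 4.10 with 1 library left out. In TPM the share on day 4 minus that on day 0 was -0.0278 points for solute carriers, -0.572 for noncoding RNA and -5.80 for other coding genes, each above 0 in reads, and of the 25 classes a further 16 moved by more than the spread between replicates with no change of direction. With globins left out of the total 11 classes moved likewise, and 6 with near-identical genes counted once. Genes switched on were 74 with a floor of 10 counts, 92 with 10 in place of 30 counts on the high day, 4 with 100 and 22 to 38 with 1 library left out; genes switched off were 157, 191, 24 and 81 to 100. With counts scaled to the smallest library (chosen after seeing the data) the numbers were 21 and 58. Looser limits or 1 library fewer can only keep or enlarge the sets of switched genes. The causes of the other differences were not tested.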

Other observations

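Some genes outside the rule for named genes were looked at after their values were seen. Mir144, one of a pair of microRNAs known from erythroid cells, was at 0 and 0 counts on day 0, 13 and 16 on day 2 and 19 and 18 on day 4, too few to pass the limit of 30 for switching on. Irf7, a transcription factor of the interferon response, rose from 31 and 29 counts through 341 and 521 to 344 and 777 (log2 fold change 4.33 ± 0.32, adjusted p = 6e-07), and the raw counts of the day 4 replicates differed by over 2-fold. Cox6b2, the testis isoform of a cytochrome oxidase subunit, rose from 111 and 95 counts to 1682 and 3120 (4.65 ± 0.22, adjusted p = 3.72e-08), while its class as a whole was called lower more often than higher. The autophagy genes Ulk1, the kinase that starts the process, and Map1lc3a rose by 1.97 and 2.60. Among the dividing cell genes Tk1, thymidine kinase, fell from 1132 and 2461 counts through 230 and 250 to 77 and 120 (-4.01 ± 0.27, adjusted p = 2.78e-07). Among the histones H2bc4 rose from 392 and 459 counts to 1345 and 1416 (1.86 ± 0.14, adjusted p = 5.48e-07). Slc6a3, the dopamine transporter, rose from 15 and 15 counts through 123 and 184 to 210 and 222 (4.00 ± 0.26, adjusted p = 2.61e-07).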
